A study of Homo sapiens with 24 samples.

Results

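GIPC1 and 4 genes near it on chromosome 19, PTGER1, DDX39A, DNAJB1 and TECR, were described over all 12 groups of the series. They are 5 of the 58138 gene names counted. GIPC1 was chosen because its counts were lower in every group that received an siRNA against RPRD1B, so its level in those groups is given as a description, with no test. The other 4 genes were chosen by their position near GIPC1, although with earlier results of these data known. They were tested where their counts allowed it.

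The series asked how the RPRD proteins affect the accumulation of steady-state RNA. HEK293T cells, a human embryonic kidney line, were transfected with siRNAs for 48 h in 8 groups of 2 samples: a control siRNA, RPRD1A_KD, RPRD1B_KD, RPRD2_KD, RPRD1A_RPRD2_KD, RPRD1B_RPRD2_KD, RPRD1A_RPRD1B_RPRD2_KD and a group labelled RPRD1A_RPRD1A_KD, each name giving the silenced genes. The last label repeats RPRD1A and does not name RPRD1B, and it was kept as written. Flp-In T-REx 293 cells, built from HEK293 to carry genes switched on by tetracycline, gave 4 groups of 2: FLP and a line labelled RPRD1B_FL, both without tetracycline, and FLP_TET and RPRD1B_FL_TET, both kept in tetracycline for 48 h. The meaning of FL is not stated, nor is it stated whether a line is a single clone or whether the 2 samples of a group came from separate cultures. P-values therefore measure the spread between these samples, which may be technical. Neither the siRNA sequences nor the number of siRNAs per gene are given in the sources used here.

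The HEK293T libraries held between 1817246 and 3135625 counts in genes, and the Flp-In libraries between 2342969 and 3531106. Levels are given as CPM, the usual counts scaled to library size, here with edgeR's TMM factors. At those depths the limit of detection, 3 counts, equals 0.85 to 1.65 CPM, which covers counting error only. All 7 of 7 markers of HEK293 lines had a mean above 1 CPM in both lines, whereas 1 of 5 markers of mature kidney did, LRP2, at 28.8 CPM in HEK293T and 15.6 CPM in Flp-In, and UMOD and AQP2 had no count in any sample. Of 3 fibroblast markers 1, COL1A1, was above it (8.87 and 3.20 CPM), and no marker of blood, endothelium or liver was. Each ± is the SD over the 2 samples of a group. Whether the samples of groups overlap is given as a description. With 2 samples a group, genes can fail to overlap at small differences, and the share of all genes that did so was not counted.

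GIPC1, also called synectin, is an adaptor with a PDZ domain that binds the tails of membrane receptors and links endocytic vesicles to the motor myosin VI. PTGER1 is the EP1 receptor for prostaglandin E2, DDX39A is a DEAD-box RNA helicase of mRNA export, DNAJB1 is a heat-inducible partner of the HSP70 chaperones, and TECR is the reductase of the last step of very-long-chain fatty acid elongation. RPRD1A, RPRD1B and RPRD2 bind the phosphorylated C-terminal domain of RNA polymerase II. Genes that share a stretch of chromosome can share regulatory elements or be read through by the same polymerase, so neighbours are a natural comparison for a gene that falls.

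In GENCODE 29, an annotation of GRCh38, GIPC1 occupies chr19:14477760-14496149 on the minus strand. PTGER1 (chr19:14472466-14475362, minus strand) begins 2397 bases beyond its 3′ end. DDX39A (chr19:14408819-14419383, minus strand) lies farther off on the same side, 53082 bases from PTGER1. On the 5′ side of GIPC1, 18620 bases separate it from DNAJB1 (chr19:14514770-14529770, minus strand). TECR (chr19:14517085-14565980, plus strand) overlaps DNAJB1 by 12686 bases on the opposite strand. Whether the authors' counting used strand is not given in the sources used here, so both genes carry a doubt about reads in that overlap. The libraries are of the QuantSeq 3′ REV type, and the annotated 3′ ends of DNAJB1 (14514770) and TECR (14565980) lie outside the overlap. How many reads of either gene fall in it was not tested.

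The 250 bases before the start of GIPC1 and of DNAJB1 are printed because these are the gene that chose the region and its nearest well-counted neighbour, which was not called in any comparison. Both are from RefSeq (GRCh38.p14), minus strand, 5′ to 3′, at chr19:14496128-14496377 for GIPC1 and chr19:14518398-14518647 for the 1 of 3 DNAJB1 starts that holds heat shock elements. Capitals mark CCAAT boxes (here read as ATTGG), heat shock elements (GAANNTTC) and TATATA.
GIPC1: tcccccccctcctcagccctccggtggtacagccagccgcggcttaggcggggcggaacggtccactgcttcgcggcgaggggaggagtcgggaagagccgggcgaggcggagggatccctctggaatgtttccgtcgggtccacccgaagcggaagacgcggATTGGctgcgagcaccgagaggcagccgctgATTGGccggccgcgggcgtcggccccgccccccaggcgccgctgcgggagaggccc
DNAJB1: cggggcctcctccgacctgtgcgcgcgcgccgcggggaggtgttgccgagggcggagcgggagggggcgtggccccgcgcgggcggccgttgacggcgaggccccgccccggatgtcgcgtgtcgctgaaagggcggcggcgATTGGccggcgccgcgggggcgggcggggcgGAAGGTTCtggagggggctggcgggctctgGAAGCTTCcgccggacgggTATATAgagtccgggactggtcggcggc
The 3 motifs were searched on both strands, with overlaps allowed. CCAAT occurred 2 times before GIPC1 and 1 time in this DNAJB1 window, and 32% of all 35116 RefSeq promoter windows of that length hold it. GAANNTTC occurred 2 times before DNAJB1 and not before GIPC1 (5.78% of windows), and TATATA once before DNAJB1 and not before GIPC1 (3.73% of windows). All 5 members had at least 1 RefSeq promoter window. The windows of an upstream DNAJB1 start and of the 2 TECR starts overlap by 178 and 212 bases.

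RPRD1B itself, given first as a check of the labels, was at 28.5 and 28.2 CPM in the control siRNA samples (50 and 62 counts). It was at 10.5 and 6.20 CPM in RPRD1B_KD, 11.5 and 3.99 CPM in RPRD1B_RPRD2_KD and 14.8 and 6.46 CPM in RPRD1A_RPRD1B_RPRD2_KD. In RPRD1A_RPRD1A_KD, whose label does not name it, it was at 14.3 and 8.11 CPM. The 8 samples of those 4 groups ran from 3.99 to 14.8 CPM, below all 8 samples of the other HEK293T groups, which ran from 19.4 to 37.7 CPM. RPRD1A ran from 14.7 to 27.6 CPM in the groups labelled with it. It was at 156 and 166 CPM in the control but lower also in the groups whose label does not name it, at 86.4 and 102 CPM in RPRD1B_KD, 75.0 and 99.7 CPM in RPRD2_KD and 69.7 and 85.3 CPM in RPRD1B_RPRD2_KD, without overlap with the control and without a call (adjusted p 1.00, 1.00 and 0.63 in edgeR's quasi-likelihood test). RPRD2 ran from 31.1 to 70.2 CPM in the groups labelled with it and from 89.0 to 105 CPM in the others. RPRD1B was low in the 3 groups labelled with it, and also in the group whose label repeats RPRD1A. Against the control alone RPRD1B was not called in any of the 4 groups (log2 fold change -1.80 to -1.38, adjusted p 1.00 in edgeR's quasi-likelihood test).

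GIPC1 followed the same division of the groups. It was at 205 and 178 CPM in the control siRNA samples (359 and 390 counts), a mean of 191 ± 19 (SD, n = 2). It was at 55.9 and 47.2 CPM in RPRD1B_KD (149 and 137 counts), 77.2 and 57.9 CPM in RPRD1B_RPRD2_KD (215 and 116 counts) and 75.5 and 53.8 CPM in RPRD1A_RPRD1B_RPRD2_KD (143 and 125 counts). In RPRD1A_RPRD1A_KD it was at 64.9 and 69.9 CPM (123 and 181 counts). The 4 group means were 27.0%, 35.3%, 33.8% and 35.3% of the control mean, in that order. The log2 fold changes against the control were -1.89 (SE 0.20), -1.49 (SE 0.20), -1.57 (SE 0.20) and -1.4998 (SE 0.20). These 4 comparisons share their control samples, and they are the values that chose the gene.

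**Figure D1:**
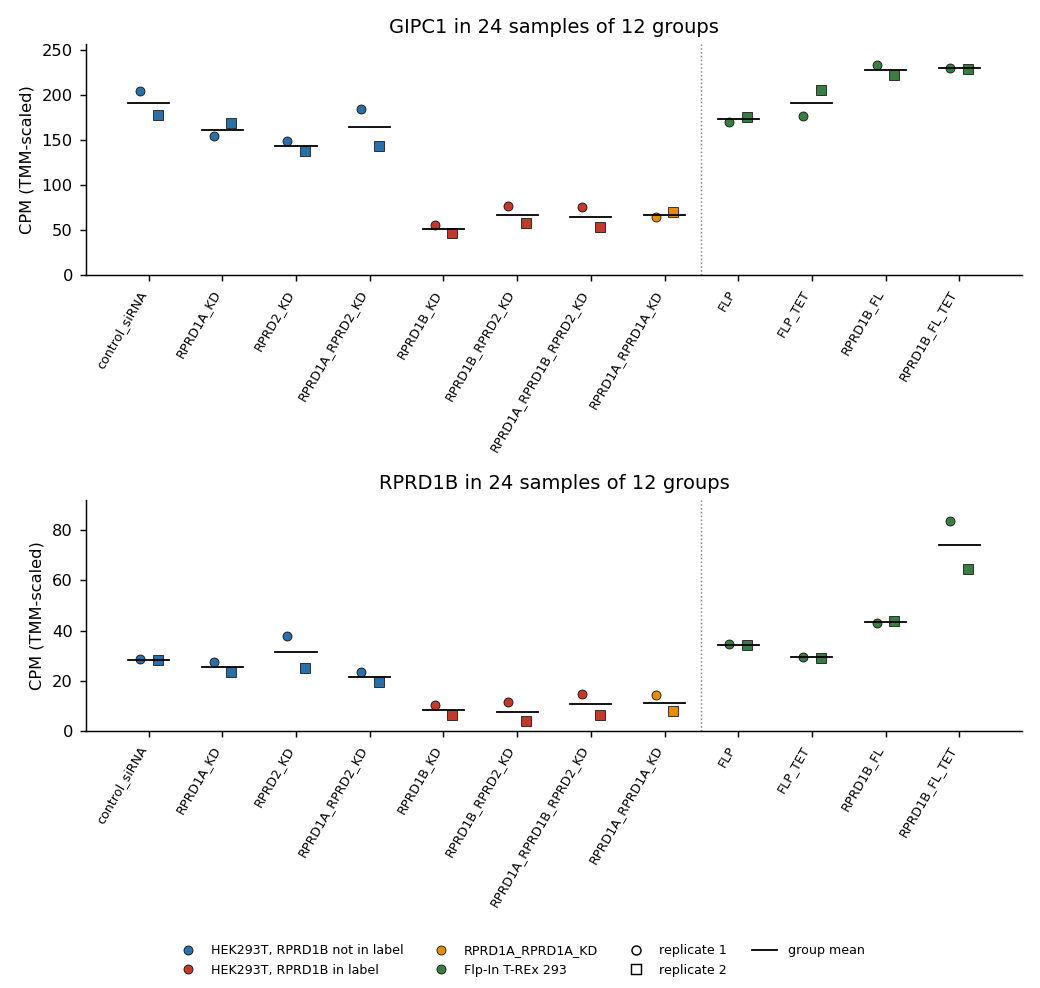
GIPC1 (top) and RPRD1B (bottom) in all 24 samples, in CPM on a linear axis, with a bar at each group's mean; circles are replicate 1 and squares replicate 2. The 8 samples of the 4 groups low in RPRD1B run from 47.2 to 77.2 CPM for GIPC1, and the other 8 HEK293T samples from 138 to 205 CPM.

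In the other silenced groups GIPC1 remained nearer to the control and was tested, since a fall in these groups did not choose it. The control samples were part of its choice, and these groups may have been what it was lower than. The tests are therefore not independent of that choice. GIPC1 was at 155 and 169 CPM in RPRD1A_KD, 150 and 138 CPM in RPRD2_KD and 185 and 144 CPM in RPRD1A_RPRD2_KD. Ordered by mean, the control was followed by RPRD1A_RPRD2_KD at 164 ± 29 (SD, n = 2), RPRD1A_KD at 162 ± 9.8 (SD, n = 2) and RPRD2_KD at 144 ± 8.4 (SD, n = 2). Samples overlapped between the control and RPRD1A_RPRD2_KD and between RPRD1A_RPRD2_KD and RPRD1A_KD, but not between RPRD1A_KD and RPRD2_KD, a difference that was not tested. The log2 fold changes were -0.24 (95% interval -0.65 to 0.17), -0.41 (-0.82 to -0.0021) and -0.22 (-0.63 to 0.19) in RPRD1A_KD, RPRD2_KD and RPRD1A_RPRD2_KD. None was called in edgeR's quasi-likelihood test (adjusted p 1.00, 1.00 and 0.84). Single libraries moved all of these values. RPRD1A_KD was at -0.14 without the first control library and at -0.34 without the second, and RPRD2_KD at -0.30 and -0.51. RPRD1A_RPRD2_KD was at -0.11 without the first control library, -0.40 without its own first and -0.05 without its own second. In RPRD1A_KD and in RPRD2_KD both samples lay below both control samples, and for RPRD2_KD the unadjusted p was 0.049. The lowest adjusted p for RPRD2_KD under any alternative was 0.053.

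The levels of GIPC1 among the groups low in RPRD1B are given as a description, since these samples chose the gene. The means ran from 67.6 ± 14 CPM in RPRD1B_RPRD2_KD through 67.4 ± 3.5 in RPRD1A_RPRD1A_KD and 64.7 ± 15 in RPRD1A_RPRD1B_RPRD2_KD to 51.6 ± 6.2 in RPRD1B_KD (SD, n = 2 each). Each group overlapped its neighbour in that order. Against RPRD1B_KD the log2 fold change was 0.40 (SE 0.21) in RPRD1B_RPRD2_KD and 0.32 (SE 0.21) in RPRD1A_RPRD1B_RPRD2_KD. The samples of RPRD1B_RPRD2_KD lay above those of RPRD1B_KD without overlap.

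To compare silenced RPRD1B with unsilenced RPRD1B at matched settings of the other siRNAs, RPRD1B_KD was set against the control, RPRD1B_RPRD2_KD against RPRD2_KD and RPRD1A_RPRD1B_RPRD2_KD against RPRD1A_RPRD2_KD, and the 3 differences were averaged (6 samples against 6). GIPC1 averaged 61.3 CPM with RPRD1B silenced and 166 CPM without, a log2 fold change of -1.44 (SE 0.12, 95% interval -1.69 to -1.19), which is a description. In same-numbered samples all 6 of 6 differences were negative, from -1.89 to -0.94 on the log2(CPM + 1) scale, with means of -1.36 in replicate 1 and -1.51 in replicate 2. Over all 11834 genes tested, 3 (0.0254%) were called, all lower. GIPC1 is 1 of them, from which nothing is read because these samples chose it, and the others were RPRD1B (log2 fold change -1.58, SE 0.24, adjusted p 0.032) and RASL10B, a Ras-like small GTPase (-1.30, SE 0.21, adjusted p 0.032), named because it completes the count. That count rests on single libraries: 335 genes were called without the first RPRD1A_RPRD2_KD library, and 1 without either control library or without the second RPRD1B_KD, first RPRD2_KD, second RPRD1A_RPRD2_KD, second RPRD1B_RPRD2_KD or second RPRD1A_RPRD1B_RPRD2_KD library.

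No neighbour that could be tested was called lower, or higher, with any siRNA. The fits called 0 of 3 tested members among the neighbours in each of the 7 comparisons with the control, where 0.00845% of 11834 genes was called in RPRD1A_KD, RPRD1B_KD, RPRD2_KD and RPRD1A_RPRD2_KD and 0.0169% in RPRD1A_RPRD1A_KD, RPRD1B_RPRD2_KD and RPRD1A_RPRD1B_RPRD2_KD. With so few genes called in all, the absence of a call says little, and the intervals say more. None of these 21 tests had an unadjusted p under 0.05, where 297 to 837 of 11834 genes did by comparison, so this too says little. DESeq2 called 0. In the matched comparison the called neighbours were again 0 of 3, by edgeR and by DESeq2. None had an unadjusted p under 0.05, where 760 of 11834 genes did. Among the RPRD1B groups 0 of 3 were called in RPRD1B_RPRD2_KD or in RPRD1A_RPRD1B_RPRD2_KD against RPRD1B_KD, where 0.00845% of genes was called in each. In the second of these TECR (log2 fold change 1.26, unadjusted p 0.0145) and DDX39A (0.48, unadjusted p 0.0495) had positive values and were not called (adjusted p 1.00 in edgeR's quasi-likelihood test).

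PTGER1, the next gene beyond the 3′ end of GIPC1, was at or near 0. It had 11 counts in all over the 16 HEK293T samples and 5 over the 8 Flp-In samples, with at most 4 counts (1.61 CPM) in a sample, in the second RPRD2_KD library. No sample of the control siRNA group had a count, RPRD1B_KD had 0 and 3, and RPRD1A_RPRD1A_KD, RPRD1B_RPRD2_KD and RPRD1A_RPRD1B_RPRD2_KD had 1 each. Of the 11 HEK293T counts, 10 were in replicate 2 libraries. It did not pass the filter on low counts, and at this depth a difference in PTGER1 could be neither detected nor bounded in any group.

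DDX39A was not called in any comparison. It was at 33.1 and 32.8 CPM in the control siRNA samples (58 and 72 counts), 29.3 and 27.5 CPM in RPRD1B_KD, 42.0 and 26.4 CPM in RPRD1B_RPRD2_KD and 41.7 and 37.5 CPM in RPRD1A_RPRD1B_RPRD2_KD. RPRD1B_KD lay below the control without overlap, while RPRD1A_RPRD1B_RPRD2_KD lay above it without overlap. RPRD2_KD, at 26.02 and 27.9 CPM, also lay below the control without overlap, while RPRD1A_KD (32.3 and 35.2 CPM), RPRD1A_RPRD2_KD (33.3 and 32.8 CPM) and RPRD1A_RPRD1A_KD (42.2 and 32.1 CPM) overlapped it. The log2 fold change was -0.21 (SE 0.23, 95% interval -0.70 to 0.27) in RPRD1B_KD against the control and 0.14 (SE 0.13, -0.14 to 0.41, adjusted p 0.89) in the matched comparison. Same-numbered differences averaged 0.27 in replicate 1 and -0.04 in replicate 2 on the log2(CPM + 1) scale. DDX39A has a close paralog, DDX39B. The counting set aside reads without a unique alignment, 9.56% to 14.6% of all reads listed, and reads shared by the pair could be among them. DDX39B, named for that reason after its values were seen, averaged 6.47 CPM with RPRD1B silenced and 8.97 CPM without (log2 fold change -0.50, SE 0.23, adjusted p 0.77).

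DNAJB1, the neighbour on the 5′ side, overlapped the control in every silenced group. It was at 257 and 160 CPM in the control siRNA samples (451 and 352 counts), 239 and 154 CPM in RPRD1B_KD, 188 and 181 CPM in RPRD1B_RPRD2_KD and 218 and 171 CPM in RPRD1A_RPRD1B_RPRD2_KD. In RPRD1A_KD it was at 279 and 184 CPM, in RPRD2_KD at 267 and 175 CPM, in RPRD1A_RPRD2_KD at 209 and 209.95 CPM and in RPRD1A_RPRD1A_KD at 231 and 164 CPM. Replicate 1 was the higher sample in 7 of 8 HEK293T groups, the exception being RPRD1A_RPRD2_KD. The share of reads in no gene also divided the HEK293T libraries by number, at 34.3% to 36.7% in replicate 1 and 27.4% to 29.8% in replicate 2, and its part in DNAJB1 was not tested. The log2 fold change was -0.08 (SE 0.28, 95% interval -0.67 to 0.50) in RPRD1B_KD and -0.15 (SE 0.16, -0.49 to 0.19, adjusted p 0.90) in the matched comparison. Within same-numbered samples 4 of 6 differences were negative, with means of -0.18 in replicate 1 and -0.10 in replicate 2 on the log2(CPM + 1) scale.

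TECR, on the strand opposite DNAJB1, had at most 18 counts in a HEK293T sample, which left wide intervals. It had 6 and 9 counts in the control siRNA samples (3.42 and 4.10 CPM) and 5 and 7 in RPRD1B_KD (1.88 and 2.41 CPM), without overlap in CPM. It had 11 and 7 counts in RPRD1B_RPRD2_KD (3.95 and 3.49 CPM) and 10 and 12 in RPRD1A_RPRD1B_RPRD2_KD (5.28 and 5.17 CPM), the latter above the control without overlap. RPRD1A_KD had 7 and 7 counts, RPRD2_KD 9 and 8, RPRD1A_RPRD2_KD 9 and 18 and RPRD1A_RPRD1A_KD 8 and 13. The log2 fold change in RPRD1B_KD was -0.80 (SE 0.49, 95% interval -1.84 to 0.24, adjusted p 1.00), an interval that includes both no difference and part of the interval of GIPC1 in that group, -2.32 to -1.46. In the other groups low in RPRD1B the interval of TECR lay above that of GIPC1. This is a description, since the size of its fall chose GIPC1, and the difference between the genes was not tested. The interval of TECR was -0.99 to 0.96 in RPRD1B_RPRD2_KD, -0.49 to 1.40 in RPRD1A_RPRD1B_RPRD2_KD and -0.66 to 1.25 in RPRD1A_RPRD1A_KD. The intervals of GIPC1 there ended at -1.06, -1.14 and -1.07. In the matched comparison TECR was at -0.27 (SE 0.26, -0.82 to 0.28, adjusted p 0.89 in edgeR's quasi-likelihood test). Of the 6 same-numbered differences 3 were negative.

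**Figure D2:**
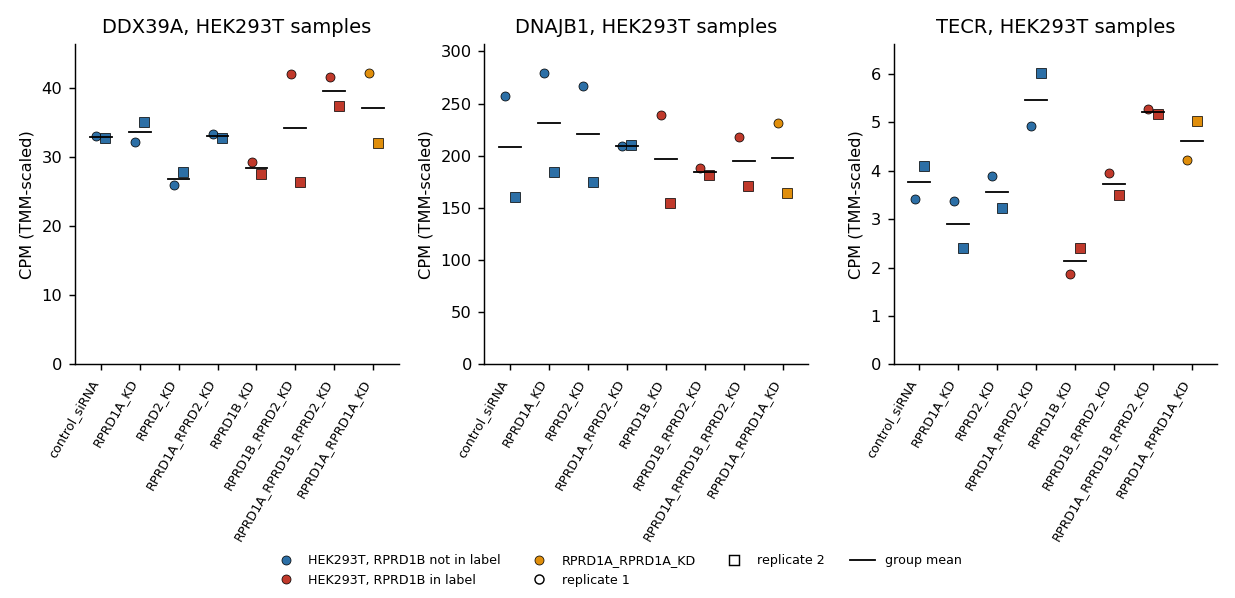
CPM (linear axes) of DDX39A, DNAJB1 and TECR in the 16 HEK293T samples, coloured by whether the label names RPRD1B (red) or not (blue, and orange for RPRD1A_RPRD1A_KD), with circles for replicate 1, squares for replicate 2 and a bar at each group's mean. In each of the 3 panels the samples of the 4 groups low in RPRD1B (red and orange) overlap the other 8, and in DNAJB1 the circles lie above the squares in 7 of 8 groups.

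In the wider region none of the other genes tested was called in the matched comparison. Of 54 annotated genes considered within 500 kb, 12 passed the filter in HEK293T, and 11 of those are not GIPC1. In the matched comparison 0 of the 11 were called (edgeR's quasi-likelihood test). In that test 1, ASF1B, a histone chaperone, had an unadjusted p under 0.05, as did 760 of 11834 genes. It had a positive log2 fold change of 0.26 (SE 0.11, adjusted p 0.75). The log2 fold changes of the 11 ran from -0.29 (SE 0.15) at PRKACA, a catalytic subunit of protein kinase A, to 0.26 at ASF1B. Their median was -0.05, beside 0.01 over all 11834 genes tested. The 95% intervals of DDX39A, DNAJB1 and TECR began at -0.14, -0.49 and -0.82, all above -1.19, the upper end of the interval of GIPC1. NDUFB7, a complex I subunit whose 3′ end lies 97 bases from that of TECR, gave -0.14 (SE 0.08, interval -0.31 to 0.03, adjusted p 0.80). These intervals describe each gene by itself, and the difference between GIPC1 and a neighbour was not tested, since the size of the fall chose GIPC1.

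**Figure D3:**
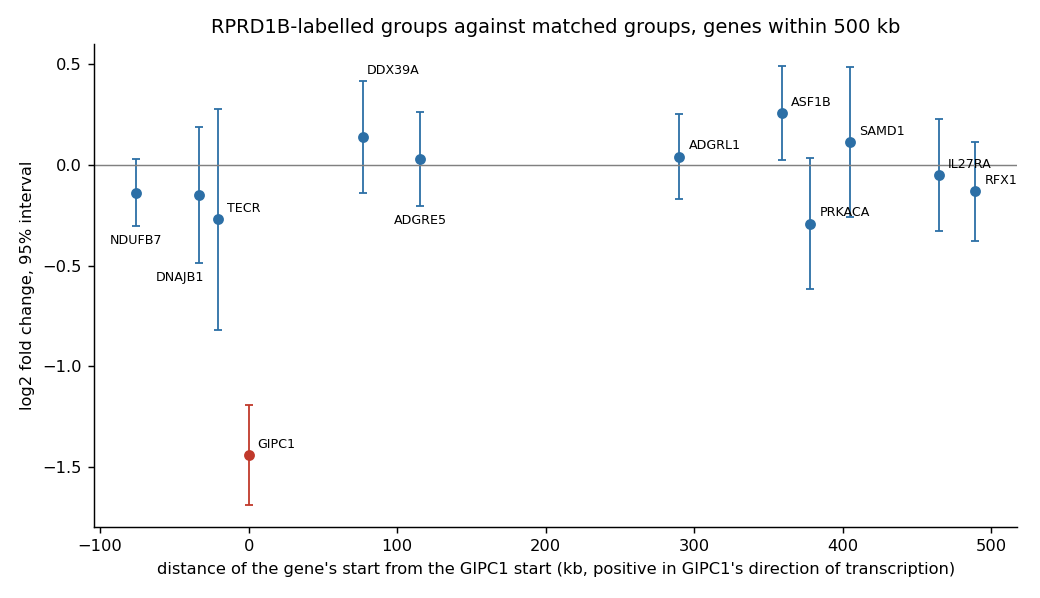
Log2 fold change in the matched comparison (6 samples with RPRD1B silenced against 6 without) for 12 tested genes within 500 kb, by the distance of each gene's start from that of GIPC1 in kb; bars are 95% intervals. GIPC1 is at -1.44 and the other 11 lie between -0.29 and 0.26.

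The ratio of 2 genes' counts in a library does not depend on how libraries are scaled. GIPC1 had from 0.234 to 0.426 counts per DNAJB1 count in the 8 samples of the 4 groups low in RPRD1B (median 0.317) and from 0.554 to 1.11 in the other 8 HEK293T samples (median 0.791). Per DDX39A count it had from 1.44 to 2.19 (median 1.82) and from 4.39 to 6.19 (median 5.18). The 2 sets of samples did not overlap for either ratio. In the 8 Flp-In samples the ratios ran from 0.741 to 0.998 per DNAJB1 count and from 4.10 to 6.95 per DDX39A count. These are descriptions, since the fall of GIPC1 chose the gene.

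**Figure D4:**
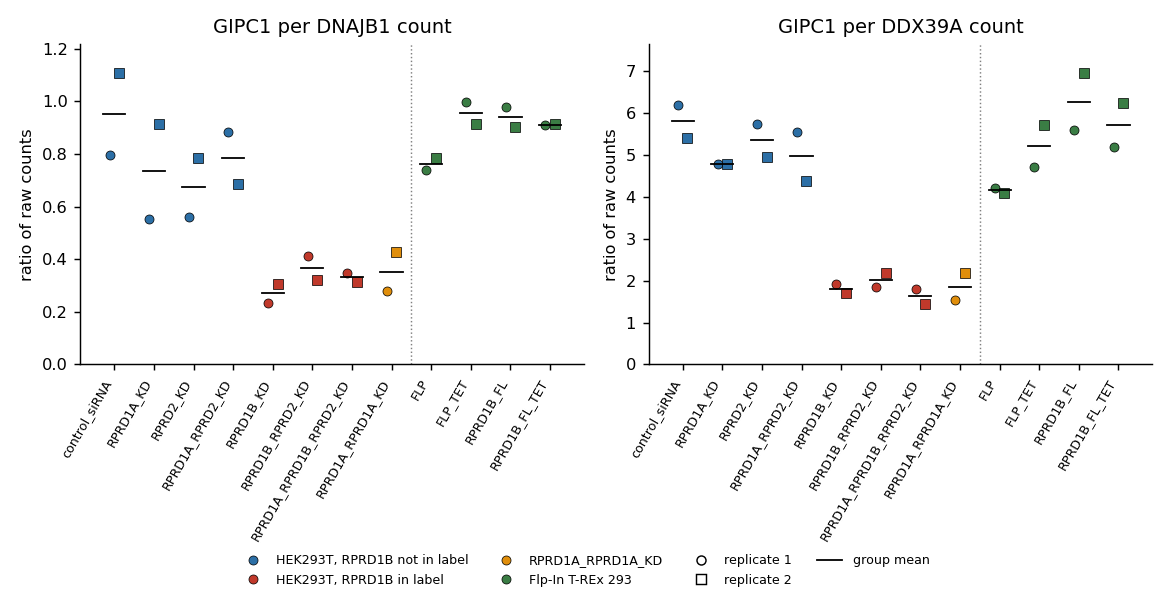
Raw counts of GIPC1 per count of DNAJB1 (left) and of DDX39A (right) in all 24 samples on linear axes, with circles for replicate 1, squares for replicate 2 and bars at group means. The 8 samples of the groups low in RPRD1B lie at or below 0.426 and 2.19, and the other HEK293T samples at or above 0.554 and 4.39.

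In the Flp-In lines the question runs the other way, from more RPRD1B. RPRD1B was at 34.6 and 34.1 CPM in FLP, 29.5 and 29.2 in FLP_TET, 43.2 and 43.8 in RPRD1B_FL and 83.9 and 64.6 in RPRD1B_FL_TET. It was called higher in RPRD1B_FL_TET than in FLP_TET, by 1.34 on the log2 scale (SE 0.19, adjusted p 0.00032, quasi-likelihood test of edgeR). Between RPRD1B_FL and FLP the log2 difference of 0.34 (SE 0.19) did not pass it, with an adjusted p of 0.47. RPRD1A was called lower in RPRD1B_FL_TET, at 25.4 and 24.4 CPM, than in FLP_TET, at 55.5 and 52.1 CPM (log2 fold change -1.11, SE 0.20, adjusted p 0.0046).

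GIPC1 was at 171 and 176 CPM in FLP (468 and 636 counts), 177 and 205 in FLP_TET, 233 and 223 in RPRD1B_FL and 230 and 229 in RPRD1B_FL_TET. All 4 samples of the RPRD1B_FL line lay above all 4 of the FLP line, with and without tetracycline. The share of all genes that separate the lines in this way was not counted, so this is not read as particular to GIPC1. The log2 fold change was 0.27 (SE 0.15, 95% interval -0.03 to 0.57, adjusted p 0.56) in RPRD1B_FL_TET against FLP_TET, where 1.11% of 11948 genes were called. It was 0.39 (SE 0.15, 0.09 to 0.70, unadjusted p 0.013, adjusted p 0.23) in RPRD1B_FL against FLP, where 1.18% were called. Neither passed the test, and the difference between the 2, -0.13 (SE 0.21), did not either (adjusted p 0.99, quasi-likelihood test of edgeR). The intervals reach at most 0.70. They are not compared with the fall under silencing, since the size of that fall chose GIPC1.

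Tetracycline within a line gave GIPC1 a log2 fold change of 0.14 (95% interval -0.17 to 0.44, adjusted p 0.61) in FLP, where 1.02% of genes were called, and of 0.01 (-0.29 to 0.31, adjusted p 0.99) in RPRD1B_FL, where 0% were. The difference between these effects was -0.13 (-0.56 to 0.30, adjusted p 0.99 in edgeR's quasi-likelihood test), with 0% of genes called. In the last 2 comparisons 733 and 477 of 11948 genes had an unadjusted p under 0.05, from which no difference is read. GIPC1 is rich in GC (64.9% of its longest transcript), and its tetracycline values changed sign when counts were corrected for GC content, to -0.22 in FLP and -0.13 in RPRD1B_FL.

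Of the neighbours, 2 of 4 members passed the filter in the Flp-In samples. None of their 10 tests over the 5 comparisons was called. An unadjusted p under 0.05 was found in 1, of DNAJB1 in RPRD1B_FL_TET against FLP_TET, where 1236 of 11948 genes had one. DNAJB1 was at 253 and 251 CPM in RPRD1B_FL_TET and at 177 and 224 CPM in FLP_TET, without overlap, a log2 difference of 0.33 (SE 0.15, adjusted p 0.44, quasi-likelihood test of edgeR). In RPRD1B_FL it was at 238 and 246 CPM and in FLP at 230 and 225 CPM. DDX39A was at 40.5 and 43 CPM in FLP, 37.5 and 35.9 in FLP_TET, 41.8 and 32.1 in RPRD1B_FL and 44.4 and 36.8 in RPRD1B_FL_TET. TECR, not tested there, had from 5 to 8 counts in 6 of the samples, 10 in the second FLP library and 16 in the first RPRD1B_FL_TET library. In the comparison of FLP_TET with FLP the 11 genes within 500 kb other than GIPC1 had a median log2 fold change of 0.39, beside -0.01 over all 11948 genes, and of 0.06 after the GC correction. None of the 11 was called. Their median GC content was 58.3%, against 47.9% over all genes, and its part in the shift was not tested beyond that correction.

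**Figure D5:**
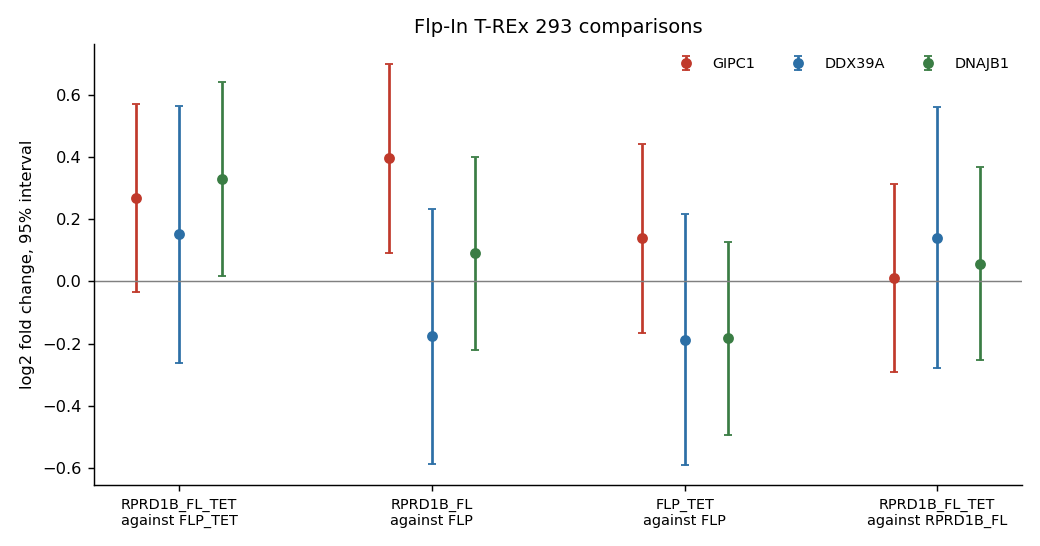
Log2 fold changes with 95% intervals for GIPC1, DDX39A and DNAJB1 in 4 comparisons of Flp-In T-REx 293 samples (2 against 2). GIPC1 is at 0.27 and 0.39 in the comparisons of the lines and at 0.14 and 0.01 in those of tetracycline, and the highest neighbour is DNAJB1 at 0.33 in RPRD1B_FL_TET against FLP_TET.

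None of the listed genes that work with GIPC1 was called when RPRD1B was silenced. Of 17 listed partners (membrane receptors, integrins and motors that bind it, MYO6 and APPL1 among them) all 17 were tested in HEK293T. In the matched comparison 0 were called, with a median log2 fold change of 0.09 beside 0.01 over all genes. An unadjusted p under 0.05 (edgeR's quasi-likelihood test) was found for 2 of the 17, beside 760 of 11834 genes. Those 2, named after their values were seen, were VANGL2, a planar polarity protein at 18.6 CPM with RPRD1B silenced and 12.2 CPM without, and SLC2A1, a glucose transporter at 25.9 and 20.4 CPM. The most abundant partner there, ACTN1, an actin cross-linker, averaged 236 CPM with RPRD1B silenced and 244 CPM without (log2 fold change -0.05, SE 0.09). GIPC3, a relative of GIPC1, averaged 29.5 and 35.8 CPM (log2 fold change -0.28, SE 0.14, adjusted p 0.78), and GIPC2 was at 0.07 CPM and not tested. The absence of a call has to be read against the 0.0254% of genes called.

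The pathways of the neighbours gave the same count. In the matched comparison 0 of 4 tested genes of prostaglandin E2 synthesis and reception, 0 of 12 of mRNA export, 0 of 13 heat shock chaperones and 0 of 10 of fatty acid elongation were called. Over all 11834 genes 0.0254% were called, so the absence of a call says little. The median log2 fold changes of the 4 lists were -0.03, -0.03, -0.03 and 0.01, beside 0.01 over all genes. The most abundant of each in HEK293T were PTGES3, a prostaglandin E synthase and HSP90 co-chaperone (log2 fold change 0.01, SE 0.09), ALYREF, an mRNA export adaptor (-0.16, SE 0.13), HSP90AB1, the constitutive HSP90 (-0.10, SE 0.07), and HACD3, a dehydratase of the elongation cycle (-0.07, SE 0.09). Over all comparisons of both lines 1 listed gene was called, HSP90AA1, the inducible HSP90. It was at 1538 CPM in FLP_TET and 2942 in FLP (log2 fold change -0.94, SE 0.20, adjusted p 0.046 in edgeR's quasi-likelihood test). In that comparison 1.02% of 11948 genes were called. No gene at all was called in that comparison without the first FLP library or without either FLP_TET library, so this call rests on single libraries.

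The genes most like GIPC1 over the 16 HEK293T samples, by Pearson's r of log2(CPM + 1) among 6860 genes with a mean of at least 20 CPM, were NAT10 (0.89), SHQ1 (0.85), AKR7A2 (0.82), INO80E (0.81) and RBM15B (0.81). NAT10 is an RNA acetyltransferase, SHQ1 an assembly factor of H/ACA ribonucleoproteins, AKR7A2 an aldo-keto reductase, INO80E a subunit of a chromatin remodeller and RBM15B an RNA-binding protein. NAT10 was at 181 ± 11 CPM in the control and 116 ± 0.49 in RPRD1B_KD (SD, n = 2). In the matched comparison the log2 differences of the 5 were between -0.47 (AKR7A2) and -0.16 (RBM15B), beside -1.44 for GIPC1, and are given without a test because likeness to GIPC1 over the same samples chose them. RPRD1B lay below the 20 CPM minimum and had an r of 0.90. Nothing is read from that r, since GIPC1 was chosen for its fall where RPRD1B was silenced. DNAJB1 stood at place 745 (r = 0.35) and DDX39A at place 4062 (r = -0.08). The 16 points share their group and replicate number, so these r are descriptions, and only 2 of the 5 genes stayed among the first 5 with Spearman's correlation or without the second RPRD1A_RPRD2_KD library.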

How the data were processed

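RNA of 24 cell-line samples was counted from QuantSeq 3′ REV libraries, per the labels' protocols. The deposited files hold the authors' raw counts, whole numbers by gene name. The submitters' processing notes list FastQC, STAR, HTSeq, DESeq2 and GRCh38, without versions or roles; the strand setting and annotation of the counting are not given in the sources used here. The 5 closing rows for unassigned reads, 30.4% to 48.5% of all reads listed, stayed out of library sizes and tests.

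Members and lists were chosen with earlier results of these data known. Named genes are the members, the RPRD genes, called genes within 500 kb, the 5 genes most like GIPC1, and from each pathway list its called genes and its most abundant gene; others were chosen after their values were seen. 1 gene of the region entered the fits but is not reported here. In R 4.3.3, edgeR 4.0.16 fitted each line's samples together with a term per group (filterByExpr with minimum count 10 and total 15, TMM, quasi-likelihood test), and genes with a Benjamini-Hochberg adjusted p under 0.05 over all genes tested were called. SE is the absolute log2 fold change divided by the root of the F statistic. GENCODE 29 (54848 of 58138 names matched) gave positions and GC content, and RefSeq gave promoters. Scripts were tested on simulated data. Alternatives were RLE factors, plain library size, DESeq2 1.42.0, other filters, only the compared groups, a replicate block, a GC offset (lowess, span 0.3), other windows, and leaving out libraries.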

Additional observations from a re-analysis of the deposited data

How the results depend on the processing

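With 2 samples a group and 1817246 to 3531106 counts a library, TECR had few counts and wide intervals, and PTGER1 was left without a bound. Why these genes had so few counts was not tested. In HEK293T the neighbours had 0 calls in the comparisons with the control, the matched comparison and those among RPRD1B groups under every alternative run. A mean count of 50 or more removed TECR from the HEK293T fit. For GIPC1 the matched value stayed between -1.65 and -1.35. GC content was known for 98.3% of the HEK293T genes tested.

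Signs turned only for values between -0.18 and 0.14, and the cause was not tested. DDX39A in RPRD1B_FL against FLP ran from -0.38 to 0.0023 over libraries left out. With the GC offset, alone or with the block, GIPC1 went from 0.14 to -0.22 in FLP_TET against FLP and from -0.13 to 0.087 in the difference of the tetracycline effects. GIPC1 in RPRD1B_FL_TET against RPRD1B_FL went from 0.01 to -0.047 (plain library size), -0.013 (no filter), -0.010 (a mean count of 50), -0.13 (GC offset) and -0.14 (GC offset and block), and from -0.025 to 0.035 over libraries left out. In Flp-In the neighbours had 0 calls under every alternative run. Of the 5 genes most like GIPC1, 2 stayed under each alternative.

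Counts of all genes called moved by more than 1.5 times: in the matched comparison from 3 to between 1 (a mean count of 50) and 335, in FLP_TET against FLP from 122 to between 0 and 1273, in RPRD1B_FL_TET against FLP_TET from 133 to between 28 and 266, in RPRD1B_FL against FLP from 141 to between 40 and 328, in RPRD1B_FL_TET against RPRD1B_FL from 0 to 74 and in the difference of the tetracycline effects from 0 to 5. Against the control they went from 1 to 40 (RPRD1A_KD), 73 (RPRD1B_KD), 167 (RPRD2_KD) and 573 (RPRD1A_RPRD2_KD), and from 2 to 123 (RPRD1A_RPRD1A_KD), 25 (RPRD1B_RPRD2_KD) and 129 (RPRD1A_RPRD1B_RPRD2_KD). They fell to 0 in RPRD1B_KD without its second library, in RPRD2_KD without either of its own and in RPRD1B_RPRD2_KD without any 1 of its own or the control's, and to 1 in RPRD1A_RPRD1A_KD and RPRD1A_RPRD1B_RPRD2_KD. Against RPRD1B_KD they went from 1 to between 0 and 3 (RPRD1B_RPRD2_KD) and between 0 and 18 (RPRD1A_RPRD1B_RPRD2_KD), with 0 without any 1 of the compared libraries.

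Same-numbered HEK293T samples tended to deviate together (mean r 0.33, from -0.01 to 0.52, over 0.1 in 26 of 28 pairs of groups), but not in every pair of groups, and the labels tie the numbers to no shared day or batch, so they are not taken as pairing there; in Flp-In the mean r was -0.02. With the replicate block the matched comparison called 11 genes instead of 3, those with the control 1 to 13 instead of 1 to 2, and FLP_TET against FLP 1 instead of 122; GIPC1 was at -1.44, DDX39A at 0.13, DNAJB1 at -0.15 and TECR at -0.27 in the matched comparison, and the block changed no call of a member.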
